A study of Homo sapiens with 6 samples.

Results

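The androgen receptor target genes described here are 39 genes that have been reported to respond to androgen in prostate cells, and every array probe carrying one of these names was used. They comprised 58 probes, and 33 of the 39 genes had a probe well above background and were tested, among 21693 genes tested in all (the array carries 43317 gene names). All cells belonged to 22RV1, a long-established line of human prostate cancer that the labels describe as positive for SPINK1, a secreted trypsin inhibitor. Stable lines carried the lentiviral vector pLemiR-338-5p, pLemiR-421 or, as control, pLemiR-RFP, which makes a red fluorescent protein, and all were kept in RPMI medium with serum, penicillin-streptomycin and puromycin. The labels name no added androgen and no androgen withdrawal. Each of 6 two-colour Agilent arrays set the RNA of a miRNA line (Cy5) against control RNA (Cy3). The miR-338-5p group held replicates 1, 2 and 3, and the miR-421 group held a sample labelled as a pool and replicates 1 and 2. The labels do not say what was pooled, whether a line was grown from 1 clone, or whether 1 control culture served all arrays. An SD with n = 3 therefore measures the spread between these samples, which may be technical.

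The androgen receptor is a nuclear receptor held by heat shock proteins and co-chaperones until testosterone or dihydrotestosterone binds. It then enters the nucleus, binds DNA at pairs of short half-sites and recruits coactivators or corepressors. In the luminal cells of the prostate it drives secreted proteases such as prostate-specific antigen, and in prostate cancer the same targets are read as a measure of receptor activity. 22RV1 cells are known to make, besides the whole receptor, splice forms without the domain that binds androgen. MicroRNAs (miRNAs) are short RNAs that pair with messenger RNAs, mainly through bases 2 to 8, the seed, and lower their output. The mature sequences of the 2 miRNAs are shown because they define the lines that were compared. They were taken from RefSeq (GRCh38.p14), with the seed in capitals, and the seeds differ. They lie in MIR338 at chr17:81125923-81125944 and in MIR421 at chrX:74218392-74218414, both on the minus strand.
hsa-miR-338-5p: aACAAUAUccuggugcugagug
hsa-miR-421: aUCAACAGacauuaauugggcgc

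Values are log2 ratios of the miRNA line over control, so that 1 is a doubling and -1 a halving of the signal. Groups were tested with limma, and a gene passed at an adjusted p under 0.05, with Benjamini-Hochberg adjustment over all tested probes. Between 44.3% and 47.9% of gene spots were well above background in Cy3 and between 41.9% and 48.3% in Cy5. Both shares were lowest on miR-421 replicate 1. The Cy3 share, that of the control RNA, split by line. It was 47.3% to 47.9% on the miR-338-5p arrays and 44.3% to 44.4% on the miR-421 arrays. A difference between the arrays is thus not separated from a difference between the lines. Its part in the comparison of the lines was not tested. Markers of luminal prostate cells were present: KLK2, KLK3, HOXB13, FOXA1, KRT8 and KRT18 were all tested. None of the basal markers KRT5, KRT14 and TP63 was well above background often enough to be tested. In bulk RNA, fewer cells with a transcript and less of it in each cell cannot be told apart.

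The androgen receptor targets moved in both directions in both lines. In the miR-338-5p line HPGD was higher and CENPN, ELL2 and NDRG1 were lower. In the miR-421 line GNMT, PMEPA1 and TARP were higher and CENPN, ELL2 and STEAP1 were lower. CENPN and ELL2 were lower in both, and 25 of the 33 tested members passed in neither. For miR-338-5p this is 1 of 33 higher, against 3.98% of all genes tested, and 3 of 33 lower, against 5.24%. For miR-421 it is 3 of 33 higher, against 10.0% of all genes, and 3 of 33 lower, against 12.6%. These shares lie near those of all genes, so the counts are no result about the androgen receptor targets as a group. The members that passed are described singly below, with the arrays on which each call rests.

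These counts depended on single arrays. The miR-338-5p count of 4 was 0 without miR-338-5p replicate 3 or without miR-421 replicate 2. It was 1 without miR-338-5p replicate 1 (KLK3), miR-338-5p replicate 2 (NDRG1) or the miR-421 pool (ELL2), and 6 without miR-421 replicate 1. The miR-421 count of 6 was 1 without miR-421 replicate 2 (CENPN), 3 without the pool (CENPN, ELL2 and GNMT) and 10 without miR-338-5p replicate 2. An array of the other line can change a call because all 6 arrays share 1 estimate of the spread.

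The median log2 ratio over the tested members hid these opposite changes. It was -0.053 for miR-338-5p, with 15 members above 0 and 18 below. With 16 above and 17 below, that for miR-421 was -0.010. Over all tested genes the medians were -0.001 and 0.006. The single members lay far from these medians, between -1.84 and 1.41 under miR-338-5p and between -2.35 and 2.68 under miR-421. The median size of the log2 ratio, whatever its sign, was 0.38 among members and 0.13 among all genes in the miR-338-5p line. In the miR-421 line it was 0.42 and 0.18. A mean change beyond 1 in size was seen in 6 members in either line, or 18.2% of them. Among all genes the share was 1.62% in the miR-338-5p comparison and 3.33% in the other. The arrays of a line also disagreed more on the members. The residual SD of the fit had a median of 0.38 over members and 0.17 over all genes. The members were chosen with earlier results of these data known and were not matched to all genes in signal. These comparisons of size with all genes are therefore no result about the targets as a group. Of the 33 members, 4 were below 0 on 6 of 6 arrays (CENPN, ELL2, FKBP5 and ZBTB10) and 5 were above 0 on 6 of 6 (KLK3, GNMT, HPGD, PTGER4 and TARP). How many of all genes kept 1 sign on 6 of 6 arrays was not counted, so these counts too are no result about the targets as a group.

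**Figure D1:**
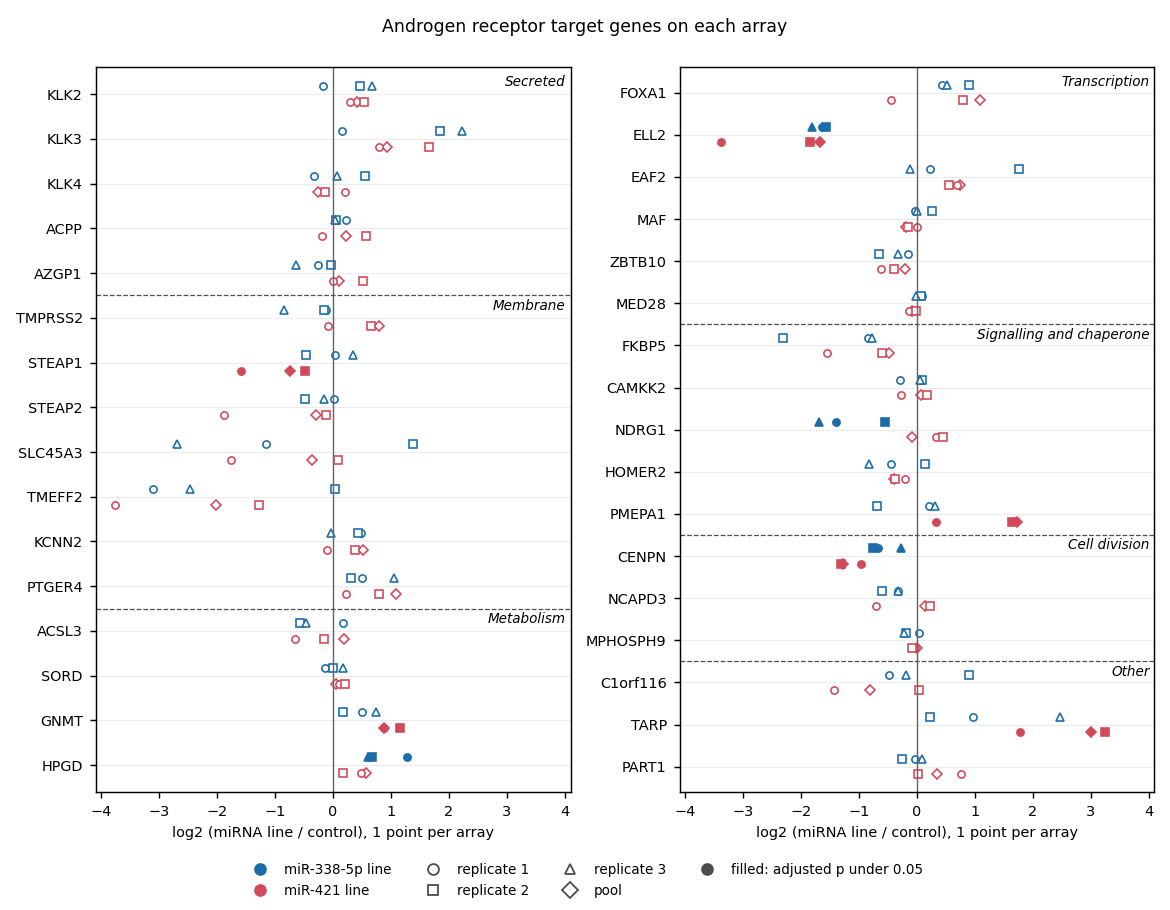
Each point is the log2 ratio of a miRNA line over control on 1 array, for the 33 tested androgen receptor targets grouped by role. Blue marks the 3 miR-338-5p arrays and red the 3 miR-421 arrays, symbols mark the replicate, and filled symbols mark a group with a limma adjusted p under 0.05. CENPN and ELL2 are filled below 0 in both lines, and TARP lies above 0 on every array.

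Among the secreted products, none of the 5 genes passed in either line, and the best known of them, KLK3, had positive ratios on every array. KLK3 encodes prostate-specific antigen, a kallikrein protease that liquefies semen. Its ratio under miR-338-5p was 0.15 in replicate 1, 1.86 in replicate 2 and 2.22 in replicate 3, while the miR-421 pool gave 0.93, replicate 1 gave 0.80 and replicate 2 gave 1.66. Replicate 1 of miR-338-5p was the lowest of the 6 arrays, and the groups overlapped. The means were 1.41 ± 1.104 (SD, n = 3; limma adjusted p 0.0838) and 1.13 ± 0.46 (SD, n = 3; limma adjusted p 0.0941). Without miR-338-5p replicate 1 both passed, at 2.04 (limma adjusted p 0.0352) in the miR-338-5p line and with the same mean (0.025) in the miR-421 line. The probe shown lies on chromosome 19 at 51363961 to 51364020, plus strand (hg19). A second KLK3 probe at 51359882 to 51359941, designed on another transcript, had means of -0.086 and -0.10 and passed in neither line (limma adjusted p 0.402 and 0.263). That probe was dim, with a control signal of 6.10 to 6.24 (normalized log2 Cy3), against 9.66 to 9.89 for the probe shown. Its ratios near 0 therefore say little about the other transcript.

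KLK2, a kallikrein that can activate the KLK3 protease, differed little from control. Its ratio was -0.17, 0.47 and 0.68 in miR-338-5p replicates 1, 2 and 3, and 0.41, 0.30 and 0.54 in the miR-421 pool, replicate 1 and replicate 2. The 3 miR-421 arrays lay close together above 0, whereas the miR-338-5p arrays lay on both sides of it. Means were 0.33 ± 0.44 (SD, n = 3; limma adjusted p 0.252) and 0.42 ± 0.12 (SD, n = 3; limma adjusted p 0.113). Without miR-338-5p replicate 1 the miR-421 value passed (limma adjusted p 0.0305). A second KLK2 probe had means of -0.10 and -0.010. KLK2 and KLK3 are close relatives in sequence, and cross-hybridisation between their probes was not tested. The other 3 secreted products were KLK4, another kallikrein, ACPP, prostatic acid phosphatase, now named ACP3, and AZGP1, a lipid-mobilising glycoprotein. Their means lay between -0.31 and 0.10 under miR-338-5p and between -0.064 and 0.21 under miR-421.

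In the 300 bases around the RefSeq start of transcription, 250 before it and 50 after, KLK3 carries 1 exact receptor half-site. Facing it is a stretch that differs from a half-site at 2 letters. The half-site searched was AGAACA, on both strands, and a pair was AGAACA and TGTTCT with 3 bases between them. Of 35116 promoter windows in the RefSeq table, 14.8% hold a half-site, and of 46 windows of 31 members, 5 do (10.9%). With 2 mismatches allowed over the 12 letters of the pair, 1.41% of all windows and 2 of the 46 member windows hold one, in KLK3 and PMEPA1. With 1 mismatch allowed it was 0.165% of all windows and 0 of the 46. The search was planned with 0 or 1 mismatch, and the level of 2 was added to that plan. A response element in the proximal promoter of KLK3 is well known. The stretches are shown because no other member window held a pair at that level, with both parts of each pair in capitals. In each, 1 part is an exact half-site and the other differs from it at 2 letters. The KLK3 stretch runs from -177 to -148 relative to the start, in the 250 upstream bases at chr19:50854665-50854914 (plus strand, GRCh38.p14). The PMEPA1 stretch runs from -245 to -216 of 1 of its 4 starts, upstream bases chr20:57710578-57710827 (minus strand). The match describes letters and shows no binding.
KLK3: taattgcAGAACAgcaAGTGCTagctctcc
PMEPA1: ttaaaccTGAAGAatgTGTTCTtgtagcac

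Among the 11 membrane genes, 7 were tested, and STEAP1 was the only one to pass. STEAP1 is a membrane protein of the metalloreductase family that is abundant in prostate cancer. Its ratio was 0.038, -0.48 and 0.35 in miR-338-5p replicates 1, 2 and 3, and -0.74, -1.59 and -0.49 in the miR-421 pool, replicate 1 and replicate 2. All miR-421 arrays lay below 0 and below every miR-338-5p array, whose values scattered around 0. Under miR-421 the mean was -0.94 ± 0.58 (SD, n = 3), or 1.91-fold lower (limma adjusted p 0.042), and under miR-338-5p it was -0.030 ± 0.42 (limma adjusted p 0.954). A second STEAP1 probe gave -0.90 under miR-421 (limma adjusted p 0.0473), but on that probe the lines overlapped. The miR-421 call of STEAP1 was lost without the pool (-1.04, limma adjusted p 0.0945), replicate 1 (-0.61, 0.114) or replicate 2 (-1.16, 0.0848). It was also lost without miR-338-5p replicate 1 (0.0727) or replicate 3 (0.0541), the mean being the same. The probe lies on chromosome 7 at 89794004 to 89794063, plus strand (hg19).

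TMPRSS2 is a membrane serine protease whose androgen-driven promoter is often fused to ERG in prostate cancer. Its ratio was -0.12, -0.17 and -0.85 in miR-338-5p replicates 1, 2 and 3, and 0.80, -0.081 and 0.65 in the miR-421 pool, replicate 1 and replicate 2. Every miR-338-5p array lay below every miR-421 array, by the narrowest margin at miR-421 replicate 1. The means of -0.38 ± 0.41 (SD, n = 3; limma adjusted p 0.319) and 0.46 ± 0.47 (SD, n = 3; limma adjusted p 0.175) did not pass.

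The miR-338-5p arrays disagreed most over the transmembrane genes SLC45A3 (SD 2.06, n = 3) and TMEFF2 (SD 1.66, n = 3), singled out after their values were seen. SLC45A3, the prostate-restricted transporter called prostein, had -1.15, 1.38 and -2.70 in miR-338-5p replicates 1, 2 and 3, and -0.37, -1.77 and 0.082 in the miR-421 pool, replicate 1 and replicate 2. Replicate 2 of miR-338-5p was thus well above control while replicates 1 and 3 were well below it. For TMEFF2, which carries follistatin and EGF-like domains, the ratio was -3.10, 0.038 and -2.46, and -2.02, -3.77 and -1.28, in the same order. It was near 0 on miR-338-5p replicate 2 and far below 0 on the other 5 arrays. Neither gene passed: TMEFF2 had a mean of -2.35 ± 1.28 under miR-421 (SD, n = 3; limma adjusted p 0.0597). That value passed in 6 of 18 alternatives of processing and arrays. Among them were the fit without miR-338-5p replicate 2 (limma adjusted p 0.0317) and that with the local background subtracted (-2.41, 0.037). The remaining tested membrane genes were STEAP2, the potassium channel KCNN2 and the prostaglandin receptor PTGER4, of which PTGER4 was above 0 on 6 of 6 arrays. PTGER4 had means of 0.62 ± 0.38 (SD, n = 3; limma adjusted p 0.108) and 0.70 ± 0.44 (SD, n = 3; limma adjusted p 0.0523). Its miR-421 value passed without miR-338-5p replicate 3 (same mean, limma adjusted p 0.0496) or miR-421 replicate 1 (0.94, 0.0426), and was 1.27 with the local background subtracted (0.0206). STEAP4, ABCC4, TRPM8 and ADAM7 were not well above background on enough arrays and have no value here.

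Among the 6 transcription genes, ELL2 was lower in both lines and no other member passed. ELL2 is an elongation factor that raises the rate of RNA polymerase II. Its ratio was -1.64, -1.58 and -1.81 in miR-338-5p replicates 1, 2 and 3, and -1.67, -3.38 and -1.84 in the miR-421 pool, replicate 1 and replicate 2. Of the 6 arrays 5 lay close together, and miR-421 replicate 1 was far lower. Under miR-338-5p the mean was -1.67 ± 0.12 (SD, n = 3), or 3.19-fold lower (limma adjusted p 0.0337), and under miR-421 it was -2.30 ± 0.94 (SD, n = 3), or 4.91-fold lower (limma adjusted p 0.00928). Its control signal lay between 12.83 and 12.95 (log2 Cy3, after normalization between arrays) on the 6 arrays. The probe lies on chromosome 5 at 95220825 to 95220884, minus strand (hg19).

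The ELL2 call under miR-338-5p was lost without miR-338-5p replicate 1 (-1.69, limma adjusted p 0.108), replicate 2 (-1.72, 0.108) or replicate 3 (-1.61, 0.13), and without miR-421 replicate 2 (same mean, 0.0648). Under miR-421 it was lost without miR-421 replicate 2 (-2.52, limma adjusted p 0.0521). Without miR-421 replicate 1, the far array, the miR-421 mean was -1.76 (limma adjusted p 0.00627).

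FOXA1, the pioneer factor that opens chromatin for the receptor, had 0.44, 0.91 and 0.52 in miR-338-5p replicates 1, 2 and 3. In the miR-421 pool, replicate 1 and replicate 2 it had 1.096, -0.46 and 0.80. Replicate 1 of miR-421 was the only array below 0. Means were 0.62 ± 0.25 (SD, n = 3; limma adjusted p 0.233) and 0.48 ± 0.82 (SD, n = 3; limma adjusted p 0.281). Without miR-421 replicate 1 FOXA1 passed in both lines, at 0.62 (limma adjusted p 0.0305) and 0.95 (0.0238). A second FOXA1 probe, on another transcript, had means of 0.053 and 0.087. It was dim, with 6.07 to 6.19 in Cy3 (normalized log2), against 10.66 to 10.83 for the probe shown. EAF2, a partner of ELL factors, MAF, a leucine zipper factor, ZBTB10, a zinc finger protein, and MED28, a Mediator subunit, lay between -0.38 and 0.62 under miR-338-5p and between -0.40 and 0.66 under miR-421. ZBTB10, singled out after its values were seen, was below 0 on 6 of 6 arrays, with means of -0.38 (limma adjusted p 0.106) and -0.40 (0.0584). The latter passed without miR-338-5p replicate 2 (0.0431).

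Among the 5 signalling and chaperone genes, NDRG1 was lower in the miR-338-5p line and PMEPA1 was higher in the miR-421 line. All 5 had means below 0 under miR-338-5p, 2 had means above 0 under miR-421, and in all 5 the miR-338-5p mean was the lower. Among all genes, 50.2% had a miR-338-5p mean below 0, 48.6% had a miR-421 mean below 0, and in 49.4% the miR-338-5p mean was the lower. No test was made of these genes as a group. NDRG1 is a stress-responsive gene that restrains metastasis in several tumours. Its ratio was -1.41, -0.56 and -1.70 in miR-338-5p replicates 1, 2 and 3, and -0.085, 0.33 and 0.44 in the miR-421 pool, replicate 1 and replicate 2. All miR-338-5p arrays lay below all miR-421 arrays, which stayed near control. Under miR-338-5p the mean was -1.22 ± 0.59 (SD, n = 3), or 2.33-fold lower (limma adjusted p 0.0307), and under miR-421 it was 0.23 ± 0.28 (SD, n = 3; limma adjusted p 0.501). The NDRG1 call was lost without miR-338-5p replicate 1 (-1.13, limma adjusted p 0.11) or replicate 3 (-0.98, 0.109), and also, with the same mean, without the miR-421 pool (0.054) or replicate 2 of miR-421 (0.0651). Its probe lies on chromosome 8 at 134249719 to 134249778, minus strand (hg19).

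PMEPA1 encodes a membrane protein that dampens transforming growth factor beta signalling. Its ratio was 0.21, -0.69 and 0.31 in miR-338-5p replicates 1, 2 and 3, and 1.72, 0.34 and 1.63 in the miR-421 pool, replicate 1 and replicate 2. The miR-421 pool and replicate 2 stood far above the rest, and miR-421 replicate 1 lay just above the highest miR-338-5p array. Under miR-421 the mean was 1.23 ± 0.78 (SD, n = 3), or 2.35-fold higher (limma adjusted p 0.0433), and under miR-338-5p it was -0.057 ± 0.55 (SD, n = 3; limma adjusted p 0.934). A second PMEPA1 probe gave 0.92 under miR-421 (limma adjusted p 0.0395) and also had no overlap between the lines. The PMEPA1 call was lost without the pool (0.98, limma adjusted p 0.16), miR-421 replicate 2 (1.03, 0.184), or miR-338-5p replicate 1 (0.0706) or replicate 3 (0.0619). The probe shown lies on chromosome 20 at 56223489 to 56223548, minus strand (hg19).

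FKBP5 is a co-chaperone of steroid receptors and one of the most widely used readouts of androgen action. Its ratio was -0.85, -2.31 and -0.78 in miR-338-5p replicates 1, 2 and 3, and -0.47, -1.55 and -0.60 in the miR-421 pool, replicate 1 and replicate 2. It was below control on every array, with a single far lower array in each line. Neither mean passed, at -1.31 ± 0.86 (SD, n = 3; limma adjusted p 0.0724) and -0.88 ± 0.59 (SD, n = 3; limma adjusted p 0.126). When miR-338-5p replicate 2, the lowest array, was left out, the miR-421 value passed (limma adjusted p 0.0492) and the miR-338-5p mean was -0.82 (0.181). Over 18 alternatives of processing and arrays the miR-338-5p value passed in 1 (limma adjusted p 0.0299). KLK3 and FKBP5, both standard readouts of the receptor, thus had means on opposite sides of 0 in either line. The kinase CAMKK2 and the scaffold HOMER2 had means between -0.38 and -0.010 in both lines and passed in neither.

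Among the 4 metabolic genes, HPGD was higher under miR-338-5p and GNMT under miR-421. HPGD inactivates prostaglandins by oxidising them. Its ratio was 1.28, 0.67 and 0.60 in miR-338-5p replicates 1, 2 and 3, and 0.58, 0.49 and 0.17 in the miR-421 pool, replicate 1 and replicate 2. It was above control on every array, and every miR-338-5p array lay above every miR-421 array, the closest ones by a narrow margin. Under miR-338-5p the mean was 0.85 ± 0.37 (SD, n = 3), or 1.80-fold higher (limma adjusted p 0.0288), and under miR-421 it was 0.41 ± 0.21 (SD, n = 3; limma adjusted p 0.101). The HPGD call was lost without miR-338-5p replicate 1 (0.63, limma adjusted p 0.0646), replicate 2 (0.94, 0.0772) or replicate 3 (0.97, 0.0709), and also, with the same mean, without the miR-421 pool (0.055) or replicate 2 of miR-421 (0.0572). Its probe lies on chromosome 4 at 175411686 to 175411745, minus strand (hg19).

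GNMT methylates glycine and so uses up the cell's methyl donor, S-adenosylmethionine. Its ratio was 0.50, 0.17 and 0.74 in miR-338-5p replicates 1, 2 and 3, and 0.87, 0.88 and 1.15 in the miR-421 pool, replicate 1 and replicate 2. The miR-421 arrays lay close together and above every miR-338-5p array, all 6 being above 0. Under miR-421 the mean was 0.97 ± 0.16 (SD, n = 3), or 1.95-fold higher (limma adjusted p 0.00715), and under miR-338-5p it was 0.47 ± 0.29 (SD, n = 3; limma adjusted p 0.0625). The miR-421 call was lost without miR-421 replicate 2 (0.88, limma adjusted p 0.0549). The size under miR-421 depended on the background correction, with 1.55 when none was applied, 2.26 when the local background was subtracted and 2.52 by the image software's own ratio. Over 18 alternatives of processing and arrays the miR-338-5p value ran from 0.335 to 1.21. It passed in 3 of them (lowest limma adjusted p 0.0242). The probe was dim, with 6.19 to 6.3 in Cy3 (normalized log2). The probe lies on chromosome 6 at 42930863 to 42930922, plus strand (hg19). ACSL3, a long-chain acyl-CoA synthetase, and SORD, sorbitol dehydrogenase, did not pass in either line. The 2 SORD probes had means of 0.014 and -0.63 in the miR-338-5p line and of 0.13 and -0.24 in the other, so that they were on opposite sides of 0.

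Among the 3 cell division genes, CENPN was lower in both lines. CENPN belongs to the inner kinetochore and binds the nucleosomes that mark the centromere. Its ratio was -0.68, -0.76 and -0.28 in miR-338-5p replicates 1, 2 and 3, and -1.27, -0.97 and -1.31 in the miR-421 pool, replicate 1 and replicate 2. It was below control on all 6 arrays, and every miR-421 array lay below every miR-338-5p array. Under miR-338-5p the mean was -0.57 ± 0.26 (SD, n = 3), or 1.49-fold lower (limma adjusted p 0.0375), and under miR-421 it was -1.18 ± 0.19 (SD, n = 3), or 2.27-fold lower (limma adjusted p 0.0045). The probe shown, designed on NM_018455, is placed on chromosome 16 between 81053871 and 81056408, plus strand (hg19).

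The 2 other CENPN probes, designed on other transcripts, passed in neither line. That at 81065028 to 81065087 had means of -0.15 (limma adjusted p 0.527) and -0.31 (0.138). That at 81066653 to 81066712 had means of -0.15 and 0.016 and was not well above background in Cy5 on any miR-338-5p array. With the mean of all 3 probes CENPN had -0.29 (limma adjusted p 0.0751) in the miR-338-5p line and -0.49 (0.0128) in the miR-421 line. In the authors' deposited table of 1 value per gene it had -0.35 and -0.43 and passed in neither (limma on that table, adjusted p 0.408 and 0.209). The miR-338-5p call was lost without any one of its own replicates 1 (-0.52, limma adjusted p 0.132), 2 (-0.48, 0.137) and 3 (-0.72, 0.0531), and also, with the same mean, without the miR-421 pool (0.0711) or replicate 2 of miR-421 (0.0737). The miR-421 call held without each array in turn, the means lying between -1.29 and -1.12. NCAPD3, a condensin subunit, and MPHOSPH9, a phosphoprotein of dividing cells, had means below 0 in both lines, between -0.42 and -0.046, and did not pass.

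TARP had the largest mean rise of any member under miR-421. TARP is a transcript of the T-cell receptor gamma locus that prostate epithelium makes under androgen control. Its ratio was 0.97, 0.22 and 2.48 in miR-338-5p replicates 1, 2 and 3, and 3.01, 1.78 and 3.25 in the miR-421 pool, replicate 1 and replicate 2. All 6 arrays lay above 0, and miR-338-5p replicate 3 exceeded the lowest miR-421 array, so the groups overlapped. Under miR-421 the mean was 2.68 ± 0.79 (SD, n = 3), or 6.40-fold higher (limma adjusted p 0.0157), and under miR-338-5p it was 1.22 ± 1.15 (SD, n = 3; limma adjusted p 0.158). A second TARP probe gave 3.06 under miR-421 (limma adjusted p 0.0142) and 1.46 under miR-338-5p (0.131). The call under miR-421 was lost without the pool (2.51, limma adjusted p 0.0603) or replicate 2 (2.40, 0.0888). The probes lie on chromosome 7 at 38299750 to 38299809 and at 38304978 to 38305037, minus strand (hg19). Other transcripts of that locus share sequence with TARP, and these probes do not tell which one was measured. C1orf116, an androgen-regulated gene of little known function, and the noncoding transcript PART1 did not pass in either line. HERC3 and the noncoding RNA PCA3 were not well above background on enough arrays.

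**Figure D2:**
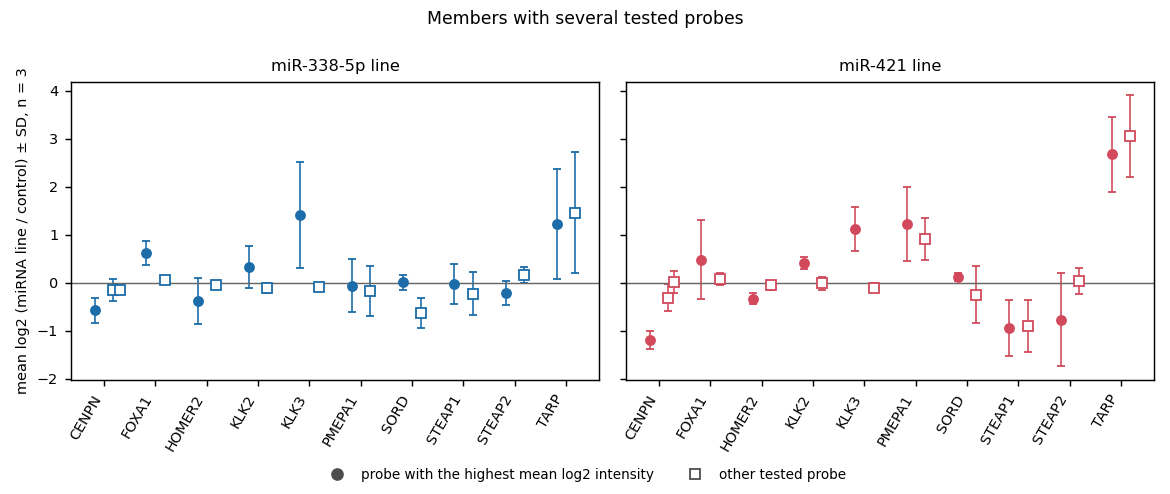
Mean log2 ratio over control with its SD (n = 3 arrays) for the 10 members that had several tested probes, with the miR-338-5p line on the left and the miR-421 line on the right. Filled circles are the probe with the highest mean log2 intensity, open squares the other tested probes. The probes of STEAP1, PMEPA1 and TARP lie together, whereas those of KLK3 and CENPN lie apart. The open KLK3 probe is much dimmer than the filled one.

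Setting both lines against each other asks which targets responded differently to the 2 miRNAs. No member passed the test of the difference (0 of 33; limma), against 0.0461% of all genes (10 of 21693). At an unadjusted p under 0.05 there were 7 members, or 21.2%, against 14.3% of all genes, and the lowest adjusted p among members was 0.163 (limma), for NDRG1. In 9 of the 33 members the 3 arrays of one line all lay on one side of the 3 of the other, against 20.3% of all genes. Of these, STEAP1, CENPN, MED28 and HPGD were higher in the miR-338-5p line, and TMPRSS2, NDRG1, PMEPA1, GNMT and AZGP1 were lower in it. The largest of these differences, miR-338-5p minus miR-421, were -1.45 for NDRG1 (limma adjusted p 0.163), -1.29 for PMEPA1 (0.305) and 0.91 for STEAP1 (0.331). CENPN differed by 0.61 (limma adjusted p 0.212), TMPRSS2 by -0.84 (0.316), AZGP1 by -0.53 (0.343), GNMT by -0.50 (0.288), HPGD by 0.44 (0.429) and MED28 by 0.13 (0.487). Each gene was judged by its brightest probe. The lines overlapped on the second STEAP1 probe and on the 2 other CENPN probes, but not on the second PMEPA1 probe. MED28 was dim, with 5.97 to 6.08 in Cy3 (normalized log2), and was well above background in Cy5 on only 2 miR-421 arrays. A p that missed the threshold does not show that the lines were alike, and passing against control in 1 line only is not shown to differ from the other. Both comparisons with control used the same control RNA or RNA of the same kind, so a member on one side of 0 in both lines is not 2 independent observations.

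**Figure D3:**
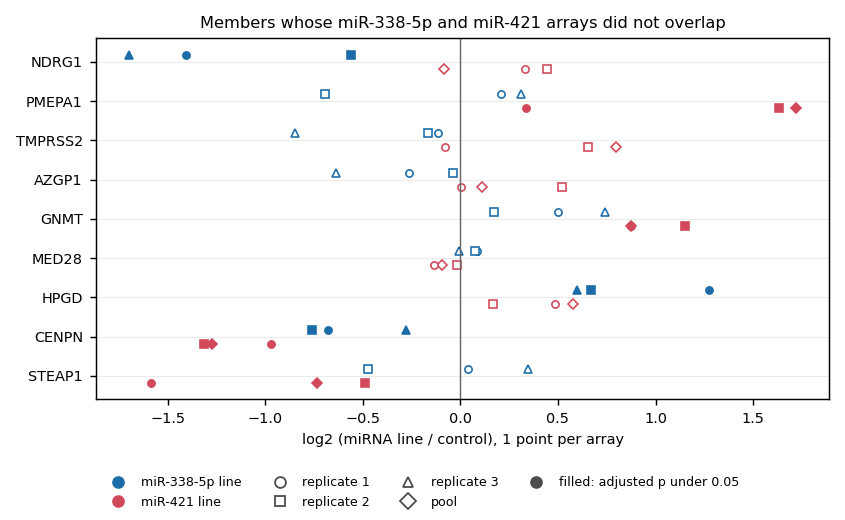
The log2 ratio over control on each array for the 9 members whose miR-338-5p arrays (blue) and miR-421 arrays (red) did not overlap. Symbols mark the replicate and filled symbols a limma adjusted p under 0.05 against control. NDRG1, PMEPA1, TMPRSS2, AZGP1 and GNMT lie further left in the miR-338-5p line, and MED28, HPGD, CENPN and STEAP1 further right. MED28 was dim, with 5.97 to 6.08 in Cy3 (normalized log2).

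Of the receptor's 18 listed cofactors 17 were tested (not NCOA2). Under miR-338-5p 1 was higher, GRHL2 (0.92, limma adjusted p 0.0276), a factor of epithelial identity that binds with the receptor, and 1 was lower, the coactivator TGFB1I1 (-0.30, 0.0393), against 3.98% of all genes higher and 5.24% lower. Under miR-421 0 were higher and 2 were lower, the Mediator subunit MED1 (-0.43, limma adjusted p 0.0397) and the corepressor NCOR1 (-0.33, 0.0481), against 10.0% and 12.6% of all genes. At an unadjusted p under 0.05 (limma) the miR-421 counts were 0 higher and 4 lower of 17. Among all 21693 genes tested they were 3891 and 4522. The adjusted calls of these cofactors rested on single arrays. The GRHL2 call was lost when either miR-421 replicate 2 or one of the miR-338-5p arrays was left out (adjusted p from 0.065 to 0.113, limma). The TGFB1I1 call was lost in the same cases and when the miR-421 pool was left out (0.0646 to 0.151). Leaving out one of the miR-421 arrays, or replicate 2 or 3 of miR-338-5p, lost MED1 (0.0502 to 0.137). Leaving out one of the miR-421 arrays, or replicate 2 of miR-338-5p, lost NCOR1 (0.069 to 0.192). The list's medians were -0.035 and -0.15, against -0.001 and 0.006 for all genes.

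These counts take the brightest probe of each gene, and other tested probes differed. A second GRHL2 probe had 0.097 under miR-338-5p (limma adjusted p 0.318), and the mean of both was 0.51 (0.0284). Under miR-421 a second MED1 probe had -0.098 (limma adjusted p 0.204), and the mean of both was -0.27 (0.0335). The second probes of GRHL2 and MED1 were dim, with 6.01 to 6.21 and 5.96 to 6.06 in Cy3 (normalized log2). Of the 2 other NCOR1 probes 1 passed under miR-421 (-0.28, limma adjusted p 0.03) and 1 did not (0.003, 0.984), and with the mean of all 3 NCOR1 no longer passed (-0.20, 0.0683). Second probes of FHL2, a LIM-domain protein (0.66, limma adjusted p 0.0262), and of UXT, a prefoldin-like protein (0.33, 0.0306), were higher under miR-421. The brighter probes shown had -0.17 and -0.15 and did not pass. In Cy3 these second probes were well above background on only 1 array (FHL2) and 3 arrays (UXT). For KDM4C and NCOA4 the probes shown had 0.41 and -0.24 under miR-421. Another probe of each had -0.36 and 0.40 (the latter on 2 arrays), and none of these passed.

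The receptor's chaperones included the heat shock proteins and co-chaperones that hold it ready for hormone, and 8 of 8 were tested. Under miR-338-5p 0 were higher and 2 were lower, DNAJA1 (-1.01 ± 0.071 (SD, n = 3); limma adjusted p 0.0151) and PTGES3 (-0.36 ± 0.054; 0.0408), against 3.98% and 5.24% of all genes. At an unadjusted p under 0.05 (limma) these counts were 0 and 5 of 8. Among all 21693 genes tested they were 2610 and 3403. Under miR-421 STIP1 was higher (0.37 ± 0.21; limma adjusted p 0.033), and DNAJA1 (-1.05 ± 0.37; 0.00777), HSP90AA1 (-1.38 ± 0.96; 0.0379) and PTGES3 (-0.37 ± 0.17; 0.0238) were lower, against 10.0% of all genes higher and 12.6% lower. DNAJA1, an HSP40 co-chaperone, was between -1.28 and -0.62 on all 6 arrays. HSP90AA1, the inducible HSP90, gave -0.85 for the miR-421 pool, -2.50 for miR-421 replicate 1 and -0.81 for replicate 2. DNAJA1 did not pass under miR-338-5p when one of its own arrays was left out (limma adjusted p 0.056 to 0.07), nor under miR-421 without replicate 2 (-0.95, 0.0579). The miR-338-5p call of PTGES3 was lost when one of the 6 arrays other than miR-421 replicate 1 was left out (0.0662 to 0.149), and its miR-421 call without the pool (0.0878) or miR-421 replicate 2 (0.116). For HSP90AA1 and STIP1 too, leaving out an array other than miR-421 replicate 1 lost the call (0.0543 to 0.0867, and 0.0504 to 0.147). A second STIP1 probe had 0.099 under miR-421 (limma adjusted p 0.536), and with the mean of both STIP1 no longer passed (0.23, 0.12). The 2 other HSP90AA1 probes were also lower under miR-421 (-1.43, limma adjusted p 0.0172, and -1.18, 0.0122), and 1 of them was lower under miR-338-5p (-0.81, 0.0498). For ST13, a co-chaperone with near-identical copies that its probes may share, the probe shown passed in neither line. Among its 6 other probes 2 were lower under miR-338-5p (-0.44, limma adjusted p 0.0384, and -0.35, 0.0356), the former also under miR-421 (-0.34, 0.0447).

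In the miR-338-5p line all 8 chaperone means were below 0, against 50.2% of all genes. In the miR-421 line 4 of 8 were, against 48.6%. That count depended on the probe. Under miR-421 the probes shown for FKBP4 and HSP90AB1 had 0.17 and 0.34, but second probes had -0.40 and -0.16, and none of them passed. The medians of the 8 chaperones were -0.29 and -0.042, against -0.001 and 0.006 for all genes. Of 10 genes of androgen synthesis 5 were tested (CYP11A1, CYP17A1, HSD17B6, SRD5A1 and SRD5A3), and 0 passed with limma in either line, with means between -0.35 and 0.13. At an unadjusted p under 0.05 (limma), 1 of the 5 was lower under miR-338-5p and 0 differed under miR-421. Among all 21693 genes tested, 3403 were lower under miR-338-5p and 8413 differed under miR-421. For HSD17B6 the miR-421 pool had no usable spot, so its miR-421 mean rests on 2 arrays. CYP11A1 and CYP17A1 were dim, with 5.97 to 6.11 and 6.17 to 6.35 in Cy3 (normalized log2), so their ratios near 0 say little.

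**Figure D4:**
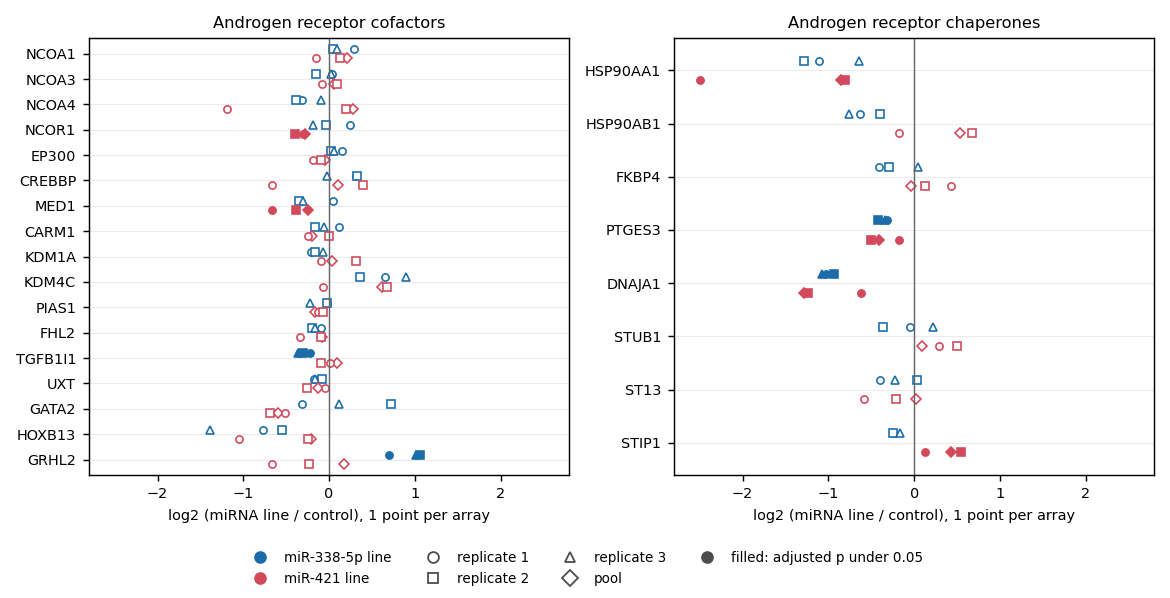
The log2 ratio over control on each array for the tested androgen receptor cofactors (left) and chaperones (right), in blue for the miR-338-5p line and red for the miR-421 line. Symbols mark the replicate and filled symbols a limma adjusted p under 0.05. DNAJA1 and PTGES3 are filled below 0 in both lines.

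Markers of other cell states moved as well, and their part in the results above was not tested. Of the mesenchymal markers, CDH2 was lower in both lines (-0.99, limma adjusted p 0.00577, and -0.74, 0.00564). A second CDH2 probe passed in neither (-0.18, limma adjusted p 0.0631, and -0.17, 0.0507), and the means of both probes were -0.59 (0.00767) and -0.45 (0.00674). The second probe was dim, with 6.03 to 6.14 in Cy3 (normalized log2), against 7.45 to 7.68 for the probe shown. VIM was lower under miR-421 (-2.27, 0.027), whereas under miR-338-5p it was 0.019, 2.39 and -0.17 in replicates 1, 2 and 3. Leaving out one of the miR-421 arrays, whichever it was, lost the VIM call (adjusted p from 0.078 to 0.128, limma). The high VIM array, miR-338-5p replicate 2, was also the one on which SLC45A3 was highest and FKBP5 lowest. Of the 5 neuroendocrine markers 3 were tested: CHGA was higher under miR-421 (1.95, limma adjusted p 0.0364), ENO2 was lower in both lines (-0.78, 0.0252, and -0.54, 0.0371), and SYP passed in neither. The CHGA call held only when miR-338-5p replicate 2 or 3 was the array left out (otherwise 0.062 to 0.161). The ENO2 call was lost without one of its own arrays under miR-338-5p (0.0797 to 0.106) and without one of the 6 arrays under miR-421 (0.0559 to 0.0847), where its mean was -0.34 without the pool. The luminal keratin KRT8 was lower under miR-338-5p (-1.31, limma adjusted p 0.00415) and KRT18 was higher under miR-421 (0.97, 0.0142), which was lost without the pool (0.0527) or miR-421 replicate 2 (0.0786). Of the 2 other KRT8 probes 1 was also lower under miR-338-5p (-0.87, limma adjusted p 0.00415). The other had 0.22 there (0.199) and was higher under miR-421 (0.43, 0.0269). With the mean of all 3 probes the miR-338-5p value of KRT8 was -0.65 (0.00682), and in the authors' deposited table it was -0.68.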

How the data were processed

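Per the labels, total RNA was poly(A)-tailed and labelled by oligo-dT priming, with control RNA in Cy3 and no dye swap. Per the file headers, the authors' image software was Feature Extraction 11.5.1.1. The deposited intensity values are, per the file headers, spot means and local background medians for Cy3 and Cy5. That software's deposited log10 ratio (Cy5 over Cy3) and the authors' deposited whole-series table of log2 ratios served as alternatives. How that table was normalized is not given in the sources used here, but it followed the image software's ratio on each array (r 0.968 to 0.98 across genes, slope 0.982 to 0.994), with column medians of -0.163 to 0.034.

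Here, intensities were corrected by normexp (offset 50) and loess-normalized within arrays, with control spots given no weight (R 4.3.3, limma 3.58.1). Cy3 signal levels quoted in the text were further normalized between arrays (limma, Aquantile), and the ratios were not. Outlier spots were dropped and spots of a probe averaged. A probe needed a signal well above background, whichever the dye, on 3 or more of 6 arrays. Those that had it (27495 of 58201; 44 of the 58 member probes) entered 1 limma fit of all 6 arrays with a mean per group. P-values are two-sided, moderated by eBayes and adjusted by Benjamini-Hochberg over probes. The fit was tested on simulated data. Where a gene had several probes, the brightest on average (mean log2 intensity) is shown. Members were given in full when that probe passed in at least 1 comparison, or for KLK3, KLK2, TMPRSS2, FKBP5 and FOXA1. The members and lists were chosen with earlier results of these data known, and some list genes are not reported here. Probe coordinates are hg19, per the file headers. Of the 39 members, 38 matched a RefSeq symbol by accession (GRCh38.p14, used for names and sequences only). Alternatives varied background, normalization, filter, outlier spots, variance model, arrays, probes per gene and a replicate term.

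The number of arrays limits the precision. A dye bias enters every ratio, and the control's own spread is left out if 1 culture served all arrays. Saturated gene spots numbered 0 on each array.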

Additional observations from a re-analysis of the deposited data

Results flagged for a closer look

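In 4 genes every array of one line lay above control and every array of the other below it, although limma's test of the difference did not pass in any of them. Among the androgen receptor targets this was AZGP1, below control under miR-338-5p and above it under miR-421, with a difference of -0.53 (miR-338-5p minus miR-421; limma adjusted p 0.343). Among the receptor's cofactors and chaperones and the enzymes of androgen synthesis it was the acetyltransferase EP300 (0.19, limma adjusted p 0.367), the co-chaperone STIP1 (-0.59, 0.152) and the 5-alpha-reductase SRD5A1 (-0.35, 0.267). On miR-421 replicate 1 AZGP1 stood at 0.002, which is level with control. A second STIP1 probe was below control there (-0.12). EP300 was dim, with 6.07 to 6.18 in Cy3 (normalized log2), and was well above background in Cy5 on only 2 miR-421 arrays. How many of all genes show such a pattern was not counted, so it is no result about these lists.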

How the results depend on the processing

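The count of targets past the threshold under miR-338-5p, 4 as reported, was 2 with each array centred on its median, 2 from the image software's own ratio, 0 without a filter on dim probes, 8 with a trended and robust variance and 1 in a fit of the group's own arrays. Leaving out 1 array gave 0 to 6. Under miR-421, 6 as reported, the other alternatives gave 4 to 8 and leaving out 1 array gave 1 to 10. For the difference between the lines the count was 0 in all 17 alternatives. The cause was not tested. With median centring the members' median was -0.19 under miR-338-5p. Only numbers 1 and 2 are shared by the groups, and arrays of the same number did not deviate together (r -0.141 and -0.212). Arrays of unlike number had r from -0.153 to 0.196. With so few arrays these values cannot decide whether the numbers pair the samples, and the labels do not say. A fit with the replicate block gave counts of 4 and 6, with CENPN (miR-338-5p), PMEPA1 and STEAP1 no longer past the threshold and TMEFF2 (both lines) and C1orf116 (miR-421) now past it. Among the 18 alternatives for each comparison with control, calls held in 17 for ELL2, CENPN and GNMT and in 16 for TARP under miR-421. They held in 12 for ELL2, 11 for NDRG1, 10 for HPGD and 6 for CENPN under miR-338-5p, and in 10 for PMEPA1 and 8 for STEAP1 under miR-421. No sign changed in a value past the threshold, those of the cofactors, chaperones and markers included. Signs changed in values that did not pass: STEAP1 0.19 and PMEPA1 0.26 under miR-338-5p without miR-338-5p replicate 2, and, as differences of the lines, KLK2 0.16 without miR-338-5p replicate 1, FKBP5 0.061 without miR-338-5p replicate 2, KLK3 -0.13 without miR-338-5p replicate 3 and -0.17 in the authors' table, and FOXA1 -0.33 without miR-421 replicate 1. Over the arrays left out in turn these ran, under miR-338-5p, from -0.22 to 0.19 for STEAP1 and from -0.24 to 0.26 for PMEPA1. For the differences the ranges were -0.13 to 0.91 for KLK3, -0.27 to 0.16 for KLK2, -0.77 to 0.061 for FKBP5 and -0.33 to 0.45 for FOXA1. Signal near background limits the dim probes, GNMT among them, whose log2 size ran from 0.88 to 2.52.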
